A study of Mus musculus with 6 samples.

Results

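Metalloproteinases are zinc-dependent proteases that cut the extracellular matrix and release proteins from the cell surface. The families described here are the matrix metalloproteinases (MMP), the membrane-anchored ADAM proteins, many of which act as sheddases, the secreted ADAMTS proteins, which carry thrombospondin repeats, and the tissue inhibitors of metalloproteinases (TIMP), which bind the active site of these enzymes. Most are made as inactive proenzymes, and in solid tumors much of their RNA is usually made by fibroblasts, macrophages, and neutrophils as well as by the cancer cells. Genes were taken by symbol, as those that begin with Mmp, Adam, or Adamts followed by a digit and the TIMP genes numbered 1 to 4. This gave 66 of the 26167 genes in the deposited tables, of which 20 were MMP, 23 ADAM, 19 ADAMTS, and 4 TIMP genes.

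The tumors grew from Hepa1-6 cells, a mouse hepatoma cell line, placed under the skin of female C57BL/6J mice aged 6 to 8 weeks. The treated group received sorafenib (Sora), an inhibitor of RAF and of several receptor tyrosine kinases, injected into the peritoneum at 10 mg/kg on 4 days (9, 11, 13, and 15). The control group did not receive Sora, and any vehicle given to it is not named in the sources used here. The labels name no genetic change in either group. RNA-seq was done on 3 tumors per group, with the label numbers 1, 3, and 4 for control and 2, 3, and 4 for Sora. A subcutaneous tumor from a single cell line also holds host stroma, leukocytes, and adjoining skin, so that in these bulk samples fewer cells of a type and less RNA per cell cannot be told apart. The labels do not say whether the tumors came from separate mice, and p-values measure only the spread between these samples.

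Total counts were 31073830 to 36205814 reads per tumor. The deposited count table holds 5 of the tumors, and the counts of Sora-treated tumor 4 were recovered from its FPKM. Levels are given as deposited FPKM, which is per gene length and can be compared between genes, and fold changes, with their standard error (SE), come from edgeR's quasi-likelihood test on counts with TMM scaling and Benjamini-Hochberg adjustment over 16513 genes. A gene was called at an adjusted p under 0.05. In this test 1.94% of all genes were called higher and 1.34% lower in Sora-treated tumors. Without Sora-treated tumor 4, edgeR called 0.0245% of genes higher and 0.00613% lower (4 and 1 of 16319), none of them a metalloproteinase or TIMP gene. The liver cancer marker Afp had 322.5 FPKM or more in every tumor and Alb 974.1 or more, whereas Ahsg, which normal liver makes in quantity, had at most 9 reads in any tumor. Of 7 tested hepatoma markers, edgeR called Alb and Ttr lower (log2 fold changes -0.55 and -2.15) and Apoa1 and Hnf4a higher (1.03 and 0.80). Summed CPM (counts per 1e6 reads after TMM scaling) of 9 fibroblast markers were 7807 to 8091 in control and 5560 to 6988 in Sora-treated tumors, those of 9 macrophage markers were 1800 to 2157 and 1503 to 1763, and those of 9 neutrophil markers were 67.6 to 81.8 and 99.7 to 156. Those of 8 keratinocyte and skin markers were 323 to 1070 and 682 to 967. Those of 6 T cell markers were 191 to 208 and 154 to 164, with log2 fold changes of -0.55 to -0.26, and Cd4 was called lower by DESeq2 but not by edgeR. No marker of these lists was at 0 in all tumors.

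Of the 66 genes, 46 passed the filter of at least 10 counts in at least 3 tumors. Among these, 4 were lower in Sora-treated tumors (Mmp2, Mmp15, Mmp28, and Adamts7) and 0 were higher by edgeR. At an unadjusted p under 0.05, 10 were lower and 6 were higher, which is to be read beside 8.69% and 8.53% of all genes. DESeq2, which covered 65 of the 66 genes, called 6 lower, adding Adam12 and Adamts15, and 2 higher, Mmp3 and Timp1. Over all 25274 genes it covered, 2.28% were called lower and 2.45% higher. These include genes without an adjusted p, which cannot be called, so the DESeq2 shares given here understate those among testable genes. On the 5 deposited count columns alone, DESeq2 called Mmp2, Mmp15, and Mmp28 lower and Mmp3 higher, at a background of 0.851% and 1.04%. With 1 tumor left out, edgeR called Mmp2 alone lower without control tumor 1, 3, or 4 or Sora-treated tumor 2, beside 0.362%, 0.656%, 0.362%, and 0.209% of all genes. Of these fits, the one without control tumor 3 called a member higher, Mmp10, and the shares of all genes called higher were 0.705%, 1.28%, 0.717%, and 0.509%. Without Sora-treated tumor 3, edgeR called 5 members lower and Timp1 higher, beside 3.5% and 3.52% of all genes. FPKM of the groups did not overlap for 9 genes that were lower and 7 that were higher with Sora, beside 11.2% and 10.6% of all genes tested. The median log2 fold change was -0.10 over 17 MMP genes, 0.05 over 15 ADAM genes, -0.08 over 11 ADAMTS genes, and 0.04 over 3 TIMP genes, and it was 0.00 over all genes tested. These medians depended on the fit and on the genes it covered. DESeq2 also took in genes with few reads, such as Timp4, and limma on log2(FPKM + 1) covered 37 of the 66 genes. Over these other sets of genes the ADAM median was -0.184 in DESeq2 and -0.132 with limma, and the TIMP median was 0.216 in DESeq2. In edgeR's test the MMP median was 0.029 without control tumor 3, and the ADAMTS median was 0.005 without Sora-treated tumor 4. Log2 fold changes ran from -0.96 to 0.76 in the MMP group, from -0.55 to 1.13 in the ADAM group, from -0.60 to 0.18 in the ADAMTS group, and from -0.14 to 0.39 in the TIMP group.

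**Figure D1:**
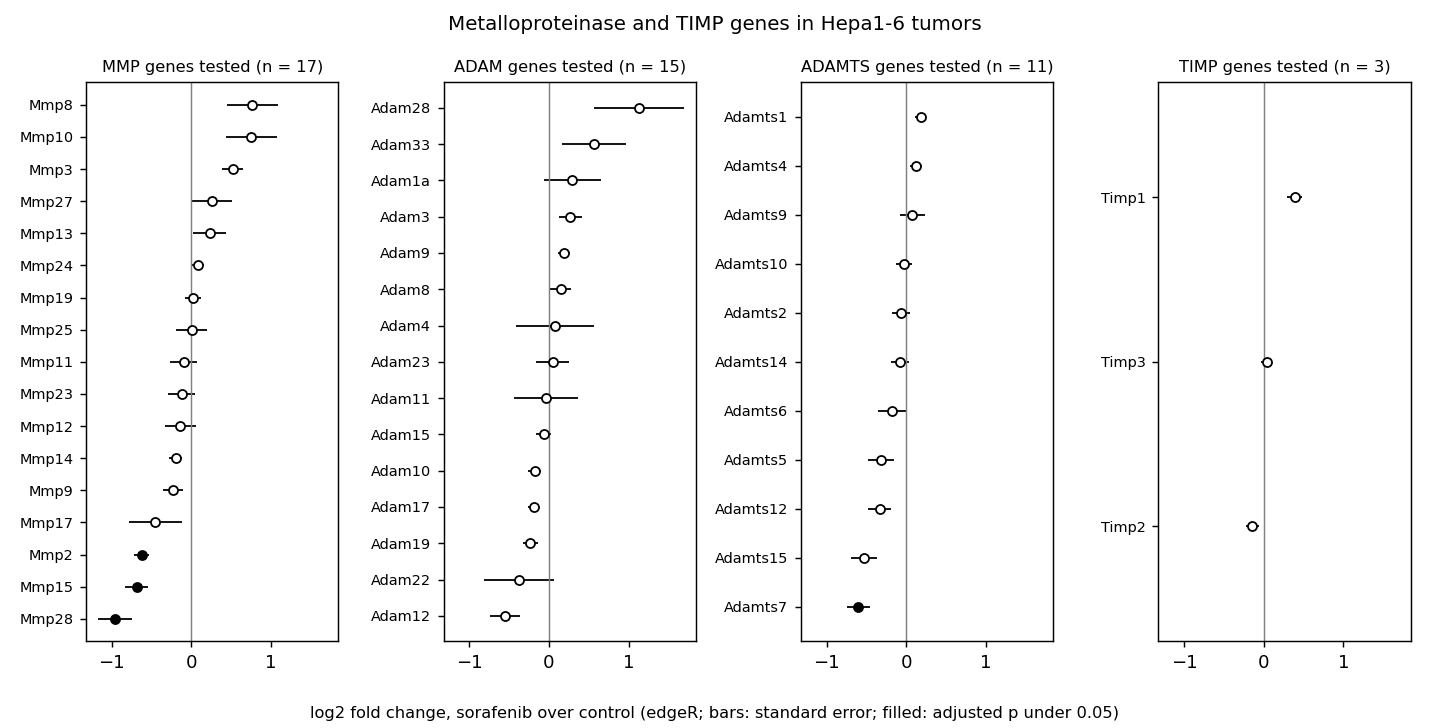
Log2 fold change of Sora-treated over control tumors (horizontal axis) with its standard error for the 46 tested genes, in panels for 17 MMP, 15 ADAM, 11 ADAMTS, and 3 TIMP genes, where filled points passed edgeR's test (adjusted p under 0.05). The 4 filled points, Mmp2, Mmp15, Mmp28, and Adamts7, lie at -0.62, -0.69, -0.96, and -0.60, and no point to the right of 0 is filled.

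The MMP RNA of these tumors was dominated by a few genes. Mmp12 (macrophage elastase), Mmp13 (the main interstitial collagenase of the mouse), and Mmp14 (a membrane-anchored collagenase that also activates pro-MMP2) together made up 75.4% to 80.2% of the summed FPKM of the 20 MMP genes in each tumor. The gelatinases Mmp9 and Mmp2, which cleave denatured collagen and type IV collagen, and the stromelysin Mmp3 followed. Summed MMP FPKM were 748, 932, and 666 in controls 1, 3, and 4, against 701, 741, and 844 in Sora-treated tumors 2, 3, and 4, so the groups overlapped. Summed TIMP FPKM were 304, 306, and 307 in control and 323, 316, and 315 in Sora-treated tumors, which did not overlap. Not divided by length, the TIMP sums did overlap, at 883 to 936 TMM-scaled CPM in control and 854 to 913 in Sora-treated tumors. The MMP sum over the TIMP sum was 2.46, 3.05, and 2.17 in control and 2.17, 2.35, and 2.68 in Sora-treated tumors.

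Gelatinases were the subgroup with the clearest single change. Mmp2 had 35.4, 32.7, and 31.2 FPKM in controls 1, 3, and 4, against 22.5, 23.7, and 17.9 in Sora-treated tumors 2, 3, and 4. Every Sora-treated tumor lay below every control tumor, and tumor 4 was the lowest. Mmp2, on chromosome 8 of GRCm38.p6 (92827290 to 92853421), fell 35.1%, from 33.1 ± 2.12 to 21.4 ± 3.07 FPKM (SD, n = 3; log2 fold change -0.62, SE 0.10, adjusted p = 0.013, edgeR). Without Sora-treated tumor 4 the adjusted p of Mmp2 was 0.0616 in edgeR's test, with a log2 fold change of -0.52, and it was called without each of the other 5 tumors. Of the 9 fibroblast markers, 8 were lower in Sora-treated tumors, with none called by edgeR and Col1a1, Col1a2, and Col3a1 called lower by DESeq2, and their summed level was lowest in Sora-treated tumor 4. Their part in the level of Mmp2 was not tested. Mmp9, the other gelatinase, had 64.4, 72.3, and 57.7 FPKM in control and 46.4, 54.1, and 63.9 in Sora-treated tumors. The groups overlapped through Sora-treated tumor 4, and the log2 fold change was -0.23 (SE 0.13, adjusted p = 0.408, edgeR). At the cell surface MMP14 forms a complex with TIMP2 that captures and cuts pro-MMP2, and the RNA of both was followed. Mmp14 had 159, 164, and 169 FPKM in control and 137, 157, and 133 in Sora-treated tumors, a log2 fold change of -0.20 (adjusted p = 0.25, edgeR). Timp2 had 164, 166, and 162 FPKM in control and 139, 162, and 142 in Sora-treated tumors, a log2 fold change of -0.14 (adjusted p = 0.418, edgeR). Neither passed the test, and the FPKM ratio of Mmp2 to Timp2 was 0.192 to 0.215 in control and 0.126 to 0.162 in Sora-treated tumors.

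Among membrane-type MMP genes, Mmp15 was the member that passed. It encodes a transmembrane relative of MMP14. Mmp15 had 3.06, 2.901, and 3.40 FPKM in controls 1, 3, and 4, against 1.93, 2.26, and 1.58 in Sora-treated tumors 2, 3, and 4. The groups did not overlap. It fell 38% (log2 fold change -0.69, SE 0.14, adjusted p = 0.0302, edgeR). Mmp24, a membrane-type MMP best known from the nervous system, had 14.6 to 15.7 FPKM in control and 15.8 to 16.1 in Sora-treated tumors. These ranges were close but apart, and the log2 fold change was 0.08 (adjusted p = 0.629, edgeR). Mmp28 (epilysin), a secreted MMP found in epithelia and macrophages, showed the largest fall of the MMP genes. It had 2.35, 2.69, and 1.92 FPKM in control and 0.979, 1.56, and 1.01 in Sora-treated tumors, again without overlap. It fell 48.7% (log2 fold change -0.96, SE 0.21, adjusted p = 0.0392, edgeR). With 1 tumor left out, Mmp15 and Mmp28 were called only without Sora-treated tumor 3, and leaving out tumor 4 of that group gave adjusted p of 0.13 and 0.177 (edgeR). All 9 macrophage markers had a log2 fold change under 0, and Mertk was called lower by edgeR, whereas DESeq2 called 5 lower. Their part in the level of Mmp28 was not tested. Mmp2 and Mmp28 overlap other annotated genes (Gm45472, and 1700020L24Rik and Gm51913), whose reads may not be told apart because the use of strand is not given in the sources used here.

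**Figure D2:**
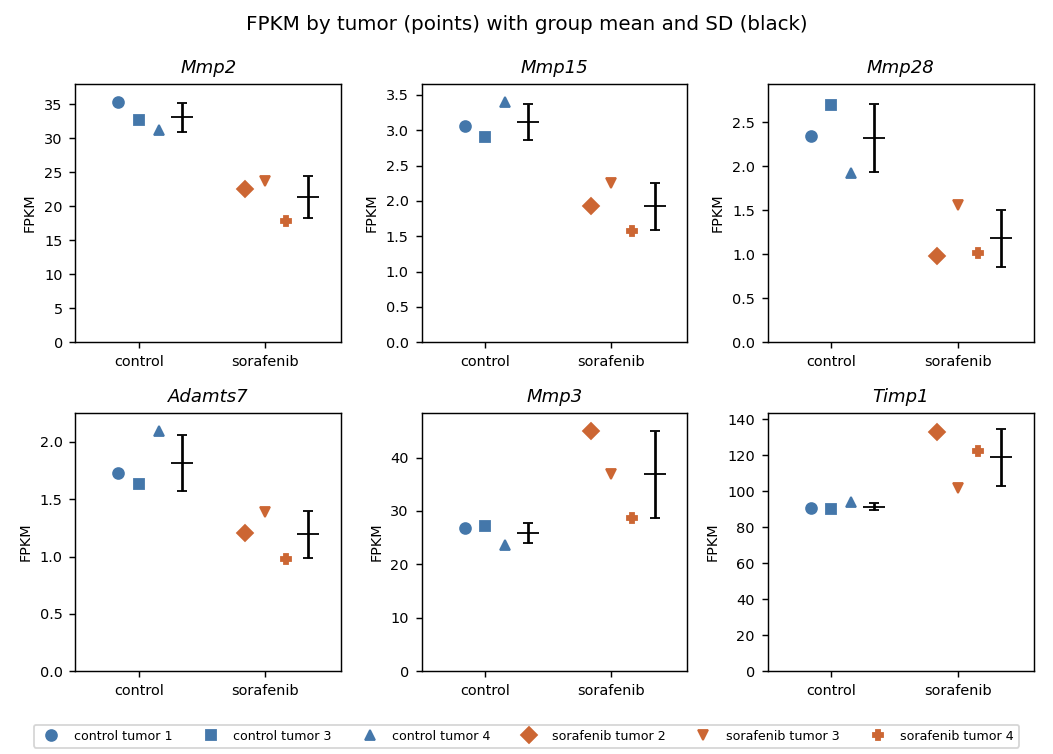
FPKM (vertical axes from 0) of 6 genes in the 3 control and 3 Sora-treated tumors, 1 point per tumor, with the mean and SD of each group in black. Mmp2, Mmp15, Mmp28, and Adamts7 lie lower in each Sora-treated tumor than in each control tumor, and Mmp3 and Timp1 lie higher, each with an edgeR adjusted p of 0.0588.

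The other MMP genes of note lie side by side on chromosome 9. The annotation of GRCm38.p6 places 8 of the 20 genes there, in the order Mmp13, Mmp12, Mmp1b, Mmp3, Mmp10, Mmp8, Mmp27, and Mmp7, from 7272514 to 7699585. These 8 genes held 54.5% to 66.2% of the summed MMP FPKM in control and 62% to 69.8% in Sora-treated tumors. Promoters in RefSeq's table for GRCm38.p6 (250 bases before to 50 after the annotated start) were found for 39 of the 66 genes and searched on both strands for 3 motifs. The AP-1 motif was searched as TGANTCA, which is its own reverse complement. The second was the TATA box, searched as TATAAA. The third was the GC box, searched as GGGCGG. None of the 3 motifs overlapped another in the promoters printed here. AP-1, a dimer of FOS and JUN proteins, is a textbook activator of stromelysin and collagenase genes. The AP-1 motif was present in the promoters of 6 of the 8 cluster genes (Mmp1b, Mmp3, Mmp7, Mmp10, Mmp12, and Mmp13) and in 0 of 7 other MMP genes with an entry, beside 7.81% of all promoters in the table. The TATA box was present in 7 of the 8 and in 0 of the 7, beside 13.6% of all promoters, whereas the GC box was present in 0 of the 8 and in all 7, beside 35.7%. The shares of all promoters are per entry (32851 entries for 27025 genes), whereas a gene of the families counted if any of its entries matched. A match describes these letters only, and no binding was measured. The promoters of Mmp3, Mmp10, and Mmp13, chosen after the values were seen, are shown as examples of the 6 cluster genes with both motifs, and those of Mmp15 and Mmp28 because they fell and carry the GC box, with all matches in capitals. Mmp2 and Adamts7 had no entry. The windows are chr9:7445572-7445871 (plus strand) for Mmp3, chr9:7502092-7502391 (plus) for Mmp10, chr9:7272264-7272563 (plus) for Mmp13, chr8:95352046-95352345 (plus) for Mmp15, and chr11:83462991-83463290 (minus) for Mmp28.
Mmp3: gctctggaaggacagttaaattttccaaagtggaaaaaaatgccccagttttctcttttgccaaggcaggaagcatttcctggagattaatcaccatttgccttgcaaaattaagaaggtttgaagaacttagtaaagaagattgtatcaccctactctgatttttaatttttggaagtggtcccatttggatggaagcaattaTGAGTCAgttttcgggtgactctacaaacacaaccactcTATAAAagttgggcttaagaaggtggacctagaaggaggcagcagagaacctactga
Mmp10: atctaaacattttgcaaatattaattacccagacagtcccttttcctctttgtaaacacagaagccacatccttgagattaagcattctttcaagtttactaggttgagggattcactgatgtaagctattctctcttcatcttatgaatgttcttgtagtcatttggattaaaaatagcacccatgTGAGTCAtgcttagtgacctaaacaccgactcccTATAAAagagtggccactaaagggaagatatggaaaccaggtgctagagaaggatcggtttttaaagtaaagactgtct
Mmp13: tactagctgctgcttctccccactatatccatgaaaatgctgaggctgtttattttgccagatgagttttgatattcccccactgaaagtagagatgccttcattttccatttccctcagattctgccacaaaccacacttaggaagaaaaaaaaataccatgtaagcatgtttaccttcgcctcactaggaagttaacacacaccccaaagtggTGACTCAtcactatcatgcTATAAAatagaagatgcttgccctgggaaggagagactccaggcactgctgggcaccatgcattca
Mmp15: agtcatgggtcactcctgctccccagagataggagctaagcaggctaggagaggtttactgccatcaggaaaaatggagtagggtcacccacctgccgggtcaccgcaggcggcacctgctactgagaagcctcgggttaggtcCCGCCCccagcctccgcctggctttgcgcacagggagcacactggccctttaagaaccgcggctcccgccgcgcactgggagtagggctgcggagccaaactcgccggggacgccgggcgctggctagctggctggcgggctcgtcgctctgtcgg
Mmp28: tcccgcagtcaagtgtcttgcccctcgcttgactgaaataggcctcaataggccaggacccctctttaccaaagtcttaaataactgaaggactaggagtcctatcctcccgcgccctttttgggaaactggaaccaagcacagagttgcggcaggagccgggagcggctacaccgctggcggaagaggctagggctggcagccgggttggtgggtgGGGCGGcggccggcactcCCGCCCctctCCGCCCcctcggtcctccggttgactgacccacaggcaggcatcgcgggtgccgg
In Mmp3, Mmp10, and Mmp13 the AP-1 match began 46, 63, and 35 bases before the annotated start, and the TATA box began 7, 29, and 16 bases before it.

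Mmp3, which cleaves proteoglycans and activates other pro-MMPs, had 26.7, 27.2, and 23.7 FPKM in controls 1, 3, and 4, against 45.1, 36.8, and 28.7 in Sora-treated tumors 2, 3, and 4. Every Sora-treated tumor was above every control tumor, and tumor 4 was nearest to the controls. The log2 fold change was 0.52 (SE 0.13, adjusted p = 0.0588, edgeR), which does not pass, whereas DESeq2 gave an adjusted p of 0.00298. Mmp10, the stromelysin next to it, had 4.32, 9.56, and 3.98 FPKM in control and 8.72, 7.88, and 13.3 in Sora-treated tumors. Control tumor 3 lay within the Sora-treated range, and the log2 fold change was 0.75 (SE 0.32, adjusted p = 0.257, edgeR). Without control tumor 3, Mmp10 was called higher with a log2 fold change of 1.30 (adjusted p = 0.0281, edgeR). The summed FPKM of the skin markers was 488, 133, and 154 in control and 442, 300.3, and 298 in Sora-treated tumors. The part of skin in the level of Mmp10 was not tested.

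Mmp13 and Mmp12 overlapped between the groups. Mmp13 had 188, 274, and 155 FPKM in control and 223, 204, and 291 in Sora-treated tumors (log2 fold change 0.23, adjusted p = 0.634, edgeR). Mmp12 had 222, 304, and 177 FPKM in control and 172, 208, and 254 in Sora-treated tumors (log2 fold change -0.14, adjusted p = 0.777, edgeR), and its log2 fold change was 0.12 without control tumor 3. In both genes control tumor 3 and Sora-treated tumor 4 were the highest of their groups, and the coefficient of variation among control tumors was 30% and 27.3%, beside 3.25% for Mmp14. Mmp8, the neutrophil collagenase, had 0.547, 1.23, and 1.28 FPKM in control and 1.69, 1.46, and 2.03 in Sora-treated tumors. The groups did not overlap, with a log2 fold change of 0.76 (SE 0.32, adjusted p = 0.248, edgeR). Of 7 tested neutrophil markers 5 were higher, S100a9 was called higher by edgeR but not by DESeq2, which called Csf3r, and their summed level was above the controls in each Sora-treated tumor. Their part in the level of Mmp8 was not tested. The remaining tested MMP genes (Mmp11, Mmp17, Mmp19, Mmp23, Mmp25, and Mmp27) had log2 fold changes of -0.46 to 0.26 and adjusted p of 0.54 to 0.996 (edgeR). Mmp7 (matrilysin), Mmp1b, and Mmp16 had at most 7 reads in any tumor and were not tested, and Mmp1b has a near copy with which reads can be shared.

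**Figure D3:**
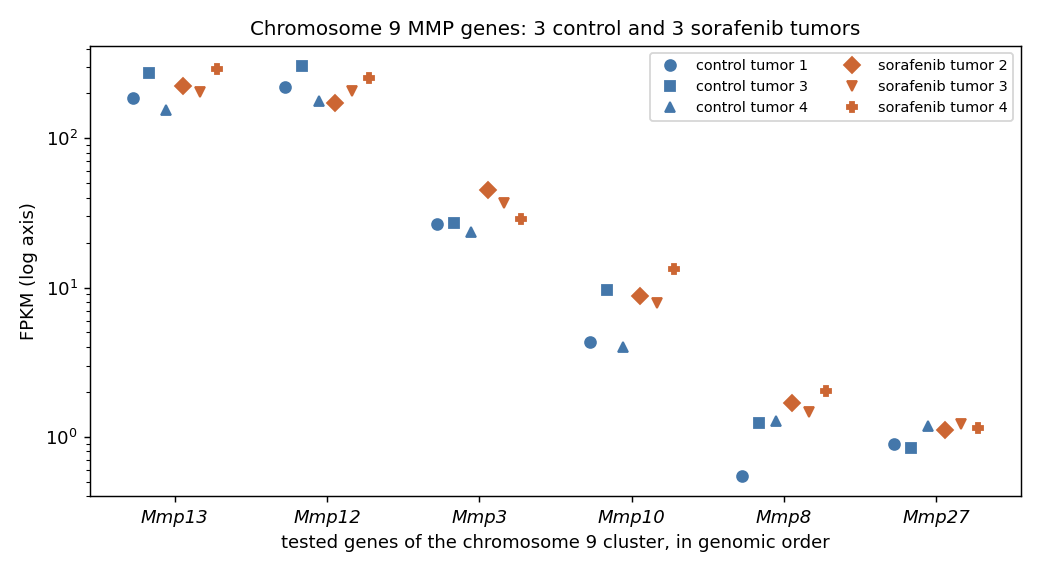
FPKM (log axis) of the 6 tested MMP genes of chromosome 9 in genomic order, 1 symbol for each of the 3 control and 3 Sora-treated tumors. Mmp13 and Mmp12 lie between 155 and 304 with mixed groups, and Mmp3 and Mmp8 lie higher in each Sora-treated tumor, with adjusted p of 0.0588 and 0.248 in edgeR's test.

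By mean FPKM, Timp2, Timp1, and Timp3 ranked 363, 565, and 1293 among the 26167 genes. Timp1, an inducible inhibitor of most MMPs, had 90.5, 90.0, and 93.8 FPKM in controls 1, 3, and 4, against 133, 102, and 122 in Sora-treated tumors 2, 3, and 4. All Sora-treated tumors lay above the narrow range of the controls, with tumor 3 the closest. The mean went from 91.4 ± 2.07 in control to 119 ± 15.9 under Sora (SD, n = 3; log2 fold change 0.39, SE 0.10, adjusted p = 0.0588, edgeR), so Timp1 did not pass. It was called higher by DESeq2 (adjusted p = 0.00606) and by edgeR with Sora-treated tumor 3 left out (adjusted p = 0.0048), and not by DESeq2 on the deposited counts alone (0.11). The FPKM ratio of Mmp9 to Timp1 was 0.615 to 0.803 in control and 0.35 to 0.533 in Sora-treated tumors. Timp3, which is bound to the matrix and also inhibits ADAM17 and the aggrecanases, had 49.3, 49.9, and 51.3 FPKM in control and 50.6, 52.2, and 51.1 in Sora-treated tumors. It had the smallest spread of the 3 tested TIMP genes among Sora-treated tumors (log2 fold change 0.04, SE 0.07, adjusted p = 0.815, edgeR). Timp4 had 1 to 7 reads per tumor and was not tested. In the annotation Timp1, Timp3, and Timp4 each overlap a synapsin gene (Syn1, Syn3, and Syn2), within which they are known to be nested.

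No ADAM gene was called among the 15 tested, and at an unadjusted p under 0.05 edgeR had 1 higher and 3 lower, beside 8.53% and 8.69% of all genes. DESeq2 called Adam12. The ADAM RNA was mostly that of widely expressed proteases. Adam10, the sheddase that cuts NOTCH receptors and E-cadherin, had 77.7, 83.5, and 76.0 FPKM in control and 65.9, 75.2, and 67.2 in Sora-treated tumors. Adam17, which releases TNF and several EGF receptor ligands, had 23.3, 21.0, and 21.6 FPKM in control and 19.1, 20.3, and 18.0 in Sora-treated tumors. Both were lower in every Sora-treated tumor than in any control tumor, by small amounts (log2 fold changes -0.18 and -0.19, SE 0.08 and 0.07, adjusted p 0.305 and 0.183, edgeR). Adam9 differed the other way, with 41.9, 43.1, and 41.9 FPKM in control and 50.4, 44.6, and 48.7 in Sora-treated tumors (log2 fold change 0.19, adjusted p = 0.235, edgeR). Adam8, a leukocyte protease, had 28.8, 36.4, and 24.6 FPKM in control and 31.5, 31.5, and 35.6 in Sora-treated tumors (log2 fold change 0.15, adjusted p = 0.651, edgeR). Its highest control was tumor 3, as for Mmp12 and Mmp13, and the groups overlapped. Adam15 overlapped as well (log2 fold change -0.07, adjusted p = 0.774, edgeR).

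Adam12 and Adam19, proteases of mesenchymal cells, were lower with Sora on average. Adam12 had 4.62, 3.12, and 5.18 FPKM in control and 3.34, 3.29, and 2.13 in Sora-treated tumors. Control tumor 3 lay below Sora-treated tumors 2 and 3, so the groups overlapped, and edgeR gave a log2 fold change of -0.55 (SE 0.18, adjusted p = 0.143), whereas DESeq2 gave an adjusted p of 0.0251. Adam19 had 8.86, 7.52, and 8.05 FPKM in control and 7.45, 7.33, and 5.85 in Sora-treated tumors (log2 fold change -0.23, adjusted p = 0.213, edgeR). Adam3, best known from sperm, was found at 1.75 to 1.93 FPKM in control and 2.12 to 2.26 in Sora-treated tumors, without overlap (log2 fold change 0.27, SE 0.14, adjusted p = 0.383, edgeR). Adam33 had 0.191 to 0.441 FPKM in control and 0.286 to 0.587 in Sora-treated tumors, and the ranges overlapped (log2 fold change 0.57, adjusted p = 0.521, edgeR). The other tested ADAM genes (Adam1a, Adam4, Adam11, Adam22, Adam23, and Adam28) had log2 fold changes of -0.38 to 1.13 and adjusted p of 0.349 to 0.978 (edgeR), with under 1 FPKM in each tumor. Of the 8 ADAM genes not tested, most are known from testis or epididymis. Adam5, Adam18, and Adam32 had 1 to 12 reads per tumor, and Adam2, Adam7, Adam21, and Adam30 had at most 4. Adam1b had 0 reads in each tumor, which allows up to 3 reads, or 0.0829 to 0.0965 reads per 1e6 counted reads without TMM scaling, by counting error alone.

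ADAMTS genes included 1 called gene, Adamts7, which was lower, among the 11 tested, beside 1.34% of all genes called lower and 1.94% higher. At an unadjusted p under 0.05 edgeR had 1 ADAMTS gene higher and 3 lower, beside 8.53% and 8.69% of all genes. ADAMTS7 cleaves cartilage oligomeric matrix protein. Adamts7, on chromosome 9 (90162904 to 90200102), had 1.73, 1.63, and 2.09 FPKM in controls 1, 3, and 4, against 1.21, 1.39, and 0.981 in Sora-treated tumors 2, 3, and 4. All Sora-treated tumors lay below the controls. It fell 34% (log2 fold change -0.60, SE 0.14, adjusted p = 0.0448, edgeR), and its adjusted p was 0.189 without Sora-treated tumor 4. With 1 tumor left out it was called only without Sora-treated tumor 3, and it was not called with total counts as the scaling. Its close relative Adamts12 had 5.25, 4.22, and 4.92 FPKM in control and 4.33, 4.27, and 2.76 in Sora-treated tumors, which overlapped through control tumor 3 (log2 fold change -0.33, SE 0.14, adjusted p = 0.258, edgeR). In TMM-scaled CPM the groups were just apart, at 37.55 or more in control and 37.44 or less in Sora-treated tumors.

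Proteoglycanases, which cut aggrecan and versican, did not share a direction. Adamts15 had 2.30, 2.34, and 1.998 FPKM in control and 1.59, 1.87, and 1.12 in Sora-treated tumors, without overlap (log2 fold change -0.53, SE 0.16, adjusted p = 0.105, edgeR, and 0.0282 in DESeq2). Adamts5 had 4.94, 3.29, and 3.15 FPKM in control and 3.30, 3.34, and 2.43 in Sora-treated tumors (log2 fold change -0.31, adjusted p = 0.364, edgeR). Adamts1, which is also anti-angiogenic, lay the other way, at 9.74, 9.01, and 9.93 FPKM in control and 10.9, 11.1, and 10.3 in Sora-treated tumors. Its groups did not overlap, yet the difference was small (log2 fold change 0.18, SE 0.07, adjusted p = 0.198, edgeR). Adamts4, the most abundant ADAMTS gene, had 20.8 to 22.7 FPKM in control and 21.7 to 25.8 in Sora-treated tumors (log2 fold change 0.12, adjusted p = 0.494, edgeR). Adamts9 had a log2 fold change of 0.08 (adjusted p = 0.856, edgeR).

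Adamts2, which removes the N-propeptide of procollagens, had 13.2, 12.7, and 13.6 FPKM in control and 13.04, 14.6, and 9.92 in Sora-treated tumors (log2 fold change -0.07, adjusted p = 0.818, edgeR). Adamts10, a gene of fibrillin microfibrils, had a log2 fold change of -0.03 (adjusted p = 0.915, edgeR), and both Adamts2 and Adamts10 turned positive without Sora-treated tumor 4 (0.06 and 0.05). Adamts6 and Adamts14 had log2 fold changes of -0.18 and -0.08. Sora-treated tumor 4 had the lowest FPKM of the 6 tumors for 9 of the 11 tested ADAMTS genes (81.8%), beside 25% of all genes tested, a count made after the values were seen. That tumor also had the lowest summed level of the fibroblast markers, and the part of these cells in the ADAMTS levels was not tested. The 8 ADAMTS genes not tested, among them Adamts13, the protease of von Willebrand factor that is made mainly in the liver, had 0 to 14 reads per tumor. Adamts13 itself had 3, 6, and 4 reads in control and 1, 2, and 3 in Sora-treated tumors, too few to compare at this depth.

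Regulators of these proteases were followed in a list of 22 genes for activators, receptors, partners, and inhibitors. Of the 20 tested, 3 were called higher (Plaur, Plat, and Furin) and 0 lower by edgeR, beside 1.94% and 1.34% of all genes. At an unadjusted p under 0.05 edgeR had 4 higher and 4 lower, beside 8.53% and 8.69% of all genes. DESeq2 called the same 3 higher and 2 lower, Pcsk5 and Tspan5, beside 2.45% and 2.28%. Plasmin activates several pro-MMPs, and Plaur and Plat belong to the system that makes it. Plaur, the receptor of urokinase, had 63.1, 68.3, and 62.9 FPKM in control and 107, 78.8, and 111 in Sora-treated tumors. It rose 53.9% (log2 fold change 0.62, SE 0.13, adjusted p = 0.0275, edgeR). Plat, tissue plasminogen activator, had 85.8, 90.1, and 105 FPKM in control and 129, 117, and 146 in Sora-treated tumors. It rose 40.7% (log2 fold change 0.49, SE 0.11, adjusted p = 0.0392, edgeR). Plau, urokinase itself, overlapped between groups (34.6, 43.6, and 33.3 against 33.8, 35.5, and 36.8 FPKM, log2 fold change -0.06, adjusted p = 0.828, edgeR).

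Furin, the convertase that removes the prodomain of membrane-type MMP, ADAM, and ADAMTS proteins, had 38.8, 41.2, and 36 FPKM in control and 59.5, 46.9, and 60.8 in Sora-treated tumors. It rose 45.3% (log2 fold change 0.54, SE 0.11, adjusted p = 0.0304, edgeR). In all 3 called genes the groups did not overlap, and Sora-treated tumor 3 was the nearest to the controls. Pcsk5, another convertase, had 3.41, 3.30, and 3.01 FPKM in control and 2.85, 2.39, and 2.03 in Sora-treated tumors, also without overlap (log2 fold change -0.41, SE 0.11, adjusted p = 0.0764, edgeR). Without Sora-treated tumor 4, edgeR's adjusted p was 0.134 for Plaur, 0.17 for Plat, and 0.147 for Furin, and DESeq2 on the 5 deposited count columns called all 3. Without control tumor 1, control tumor 4, or Sora-treated tumor 2, edgeR called 0 regulators, beside 174, 176, and 117 of all genes. Without control tumor 3 it called Plaur and Furin, beside 316 of all genes. Without Sora-treated tumor 3, edgeR called Plaur, Plat, and Furin higher and Serpine2 and Tspan5 lower, beside 3.52% and 3.5% of all genes. Tspan5, a tetraspanin partner of ADAM10, had 3.35, 2.94, and 3.82 FPKM in control and 2.45, 2.97, and 2.25 in Sora-treated tumors, which overlapped (log2 fold change -0.39, SE 0.11, adjusted p = 0.0883, edgeR, and 0.0227 in DESeq2). In TMM-scaled CPM the groups of Tspan5 were apart, at 44.7 or more in control and 43.7 or less in Sora-treated tumors. Bsg, an inducer of MMP synthesis and the most abundant gene of the list, overlapped between groups (log2 fold change -0.09, adjusted p = 0.758, edgeR).

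**Figure D4:**
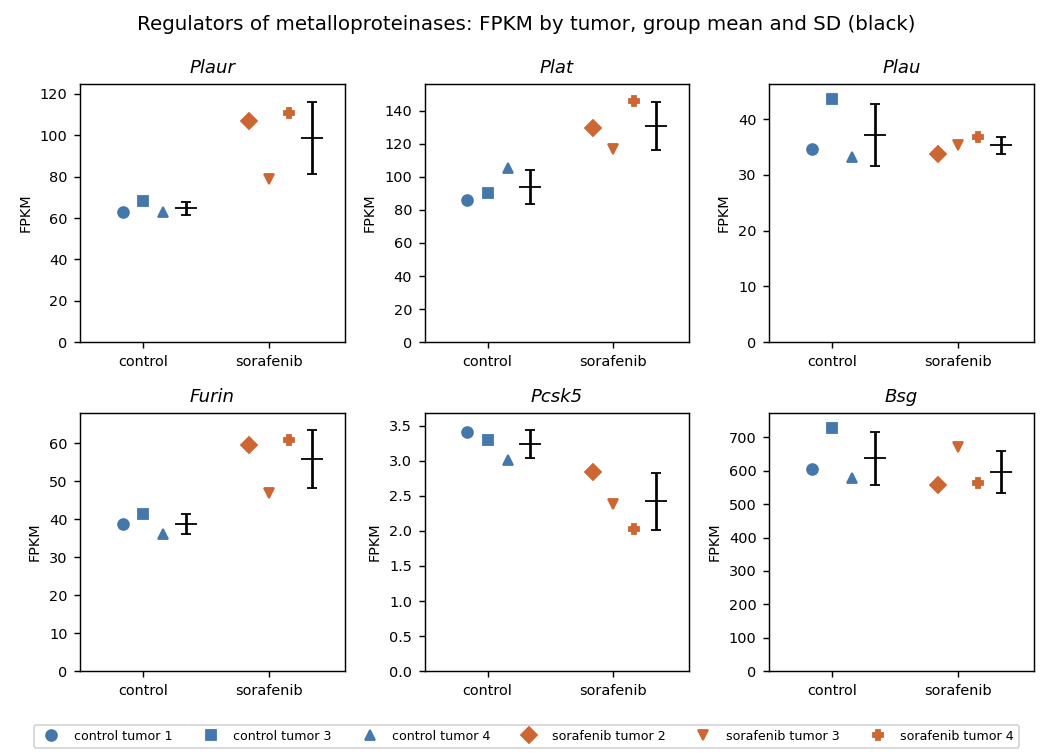
FPKM (vertical axes from 0) of 6 regulators of metalloproteinases in the 3 control and 3 Sora-treated tumors, 1 point per tumor, with the mean and SD of each group in black. Plaur, Plat, and Furin lie higher in each Sora-treated tumor than in each control tumor, with Sora-treated tumor 3 nearest to the controls, Pcsk5 lies lower (edgeR adjusted p 0.0764), and Plau and Bsg overlap.

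Genes of related proteins gave no call. Of 7 ADAMTS-like genes, matrix proteins that lack the protease domain, 4 had a log2 fold change above 0 and 3 below, with adjusted p of 0.405 to 0.908 and 0 at an unadjusted p under 0.05 (edgeR). Of 4 tested astacin metalloproteinases, 1 was higher and 3 were lower, with adjusted p of 0.39 to 0.948 and 0 at an unadjusted p under 0.05 (edgeR). DESeq2 called none of either list. Log2 fold changes ran from -0.24 to 0.98 over the ADAMTS-like genes and from -0.93 to 0.62 over the astacins, with the widest values in genes under 1 FPKM. Bmp1, the procollagen C-proteinase of this list, had a log2 fold change of -0.01 and is named here for its role, outside the rule for named genes.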

How the data were processed

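RNA from 3 control and 3 Sora-treated tumors was sequenced, 1 library per tumor. The authors deposited counts, whole numbers of reads per gene without normalization, and FPKM, counts scaled to gene length and library total. The study's methods name Bowtie2 and GRCm38, whereas the submitters' processing notes name fastp, HISAT2, HTSeq, and GRCm39. The annotation and use of strand are not given in the sources used here. The deposited count table used here holds 5 tumors. In these each FPKM equals the count over 1 length per gene and the total, so the missing column was obtained from the FPKM values (100% of values within 0.001 of a whole number, and 342 genes with 512 reads left at 0). The same step returned every reachable count of each known tumor.

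Genes that reached 10 counts in 3 or more tumors were tested with edgeR 4.0.16 in R 4.3.3 (TMM, glmQLFit and glmQLFTest, robust=FALSE). The standard error is the log2 fold change divided by the square root of F. The biological coefficient of variation was 0.132. The floor given for 0 reads covers counting error only, whereas the standard error also holds the spread between tumors. Alternatives were DESeq2 1.42.0, other scalings and filters, a replicate block, leaving out each tumor, and limma 3.58.1 on log2(FPKM + 1) or log2(FPKM + 0.1) with or without a filter of 1 FPKM in 3 tumors. Of the fits, only edgeR's was tested on simulated data, with 6 tumors and without Sora-treated tumor 4. With 200 genes changed 4-fold, 6.09% and 7.03% of the genes called were false. With no gene changed, 0 and 2 genes were called. Smaller changes, such as those of the genes called here, were not simulated.

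The genes and lists were chosen with earlier results of these data known. Named genes were those called, all TIMP genes, the 6 most abundant of each group, the 3 largest rises and falls of each group among genes with a mean of at least 1 TMM-scaled CPM, genes with that mean whose FPKM groups do not overlap, those known for their role, and the regulators called or with the 5 smallest p. Other genes are named only to account for them, and the marker genes and Serpine2 were named after their values were seen. The motifs TATAAA and GGGCGG and the promoters printed were chosen after the data were seen. No protein sequences were used here. A gene of the regulator list is not reported here and was left out of its counts.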

Additional observations from a re-analysis of the deposited data

How the results depend on the processing

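The number of metalloproteinase and TIMP genes called lower was 4 and the number called higher was 0. DESeq2 gave 6 and 2, edgeR without a filter on low counts 6 and 2, and DESeq2 on the 5 deposited count columns (added after seeing the data) 3 and 1. Limma on log2(FPKM + 1) and on log2(FPKM + 0.1) gave 1 and 0 each, and limma on log2(FPKM + 1) without a filter 0 and 0. In the same order, these fits called 1194, 1147, 478, 286, 252, and 0 of all genes, beside 543 in the main fit. The unfiltered limma fit called no gene at all, so its 0 and 0 are not a result about these families. With 1 tumor left out, 0 to 5 were lower and 0 to 1 were higher, beside 5 to 1145 of all genes called. Of the regulators, 3 were called higher and 0 lower. Limma on log2(FPKM + 0.1) and limma without a filter called 0 regulators higher, beside 252 and 0 of all genes called. DESeq2 and edgeR without a filter on low counts called 2 lower each, beside 1194 and 1147 of all genes called. With 1 tumor left out, 0 to 3 regulators were called higher and 0 to 2 lower. The numbers 3 and 4 are shared by both groups, but deviations of same-numbered tumors from their group means had correlations of -0.064 and -0.066, so the numbers were not taken to pair the tumors. With the number as a replicate block, 1 member (Mmp2) was called lower, 0 regulators were called higher, and the MMP median was 0.026 in place of -0.099. Over all genes 125 were called with the block, beside 543 without it.

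The median of the MMP group was -0.127 to 0.029 with 1 tumor left out. That of the ADAM group, 0.047, was -0.184 in DESeq2, -0.190 without a filter, -0.132, -0.134, and -0.008 with limma on log2(FPKM + 1), log2(FPKM + 0.1), and without a filter, -0.098 in DESeq2 on the deposited counts, and -0.065 to 0.09 with 1 tumor left out. That of the ADAMTS group, -0.08, was -0.18 in DESeq2, -0.16 with the replicate block, and -0.183 to 0.005 with 1 tumor left out. That of the TIMP group, 0.042, was 0.216 in DESeq2, 0.209 without a filter, and 0.186 in DESeq2 on the deposited counts. DESeq2 and the unfiltered fits also count genes with few reads, such as Timp4. In DESeq2 on the deposited counts Adamts10 and Adamts2 turned positive (0.051 and 0.060). With 1 tumor left out the log2 fold change was -0.075 to 0.054 for Adamts10, -0.183 to 0.063 for Adamts2, -0.033 to 0.224 for Adamts9, and -0.314 to 0.117 for Mmp12. Among genes that were not called, other wide ranges included 0.042 to 0.518 for Mmp13, -0.375 to -0.116 for Mmp9, 0.019 to 0.336 for Adam8, 0.222 to 1.045 for Adam33, -0.434 to -0.099 for Adamts5, 0.454 to 0.95 for Mmp8, 0.463 to 1.301 for Mmp10, -0.431 to -0.16 for Adamts12, and -0.286 to -0.144 for Adam19. The causes were not tested. Genes with under 10 reads per tumor are limited by depth.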
